A study of Mus musculus with 4 samples.

Results

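The cells described here were microglia of 5XFAD mice in which the lipid carrier gene Apoe was read while Cst7 and Itgax, markers of a later activation state, were not. Members were chosen by reads alone. Of 21172 barcodes, 13820 had at least 40 genes with a read and no more reads than the study's upper limit, and 2164 of these had a read of Trem2 and Apoe and none of Cst7, Itgax, the T cell gene Cd3e, the B cell gene Cd79a or the monocyte gene Ccr2. They are called Apoe single-positive cells below. Comparison cells came from the same mice and also had Trem2 and none of Cd3e, Cd79a or Ccr2: 4966 triple-negative cells had no Apoe, Cst7 or Itgax, and 3331 double-positive cells had both Apoe and Cst7.

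All 4 mice were 9-month-old males carrying the 5XFAD transgenes, which are expressed in neurons under the Thy1 promoter and lead to amyloid deposits. In 2 of them both copies of Abi3, an actin regulator of the WAVE complex, were deleted (Abi3-/-), and 2 had both copies (Abi3+/+). According to the study's methods all were heterozygous for a Trem2 variant of the SJL background. Cells were dissociated in the cold from a brain hemisphere without cerebellum and olfactory bulb, and a targeted panel of immune genes was read (BD Rhapsody). Abi3 is not in the panel, so the genotype rests on the labels. There was 1 library per mouse, so mouse and library cannot be told apart.

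Microglia are the resident phagocytes of the brain. TREM2 is their receptor for lipids and lipoproteins, among them those that carry APOE. Near amyloid plaques, microglia enter a state known as disease-associated microglia (DAM), in which homeostatic genes such as Cx3cr1 fall, a first set of genes including Apoe, Fth1, Lyz2 and Ctsd rises without needing Trem2, and a later set including Cst7, Itgax, Cd9, Csf1, Spp1 and Ccl6 needs Trem2. Macrophages at the borders of the brain also express Apoe, often with Cd163 and MHC class II genes.

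The label microglia held for most of the cells. The 10 listed microglia markers outside the rule, among them Cx3cr1, C1qa and Selplg, were read in most Apoe single-positive cells of every mouse. Values by mouse are given throughout in the order Abi3-/- mouse 1, Abi3-/- mouse 2, Abi3+/+ mouse 1 and Abi3+/+ mouse 2. Cx3cr1, the fractalkine receptor, was read in 95.3%, 87.7%, 94.2% and 75.3% of the cells, lowest in Abi3+/+ mouse 2. That mouse was lowest in the other classes too, with 82.8% of its triple-negative and 61.2% of its double-positive cells. A read of at least 1 of 8 listed markers of monocytes and border macrophages, such as Cd163 and F13a1, was found in 7, 13, 10 and 20 cells, or 1.10%, 2.38%, 1.65% and 5.31%, against 0.258% to 0.706% of triple-negative and 0.692% to 2.84% of double-positive cells. Listed markers of ependymal cells, astrocytes or precursors, such as Ncam1 and Trib2, were read in 17, 47, 32 and 39 cells, or 2.67%, 8.61%, 5.29% and 10.3%, against 1.29% to 2.22% of triple-negative and 2.77% to 8.08% of double-positive cells. Among the members such cells were most frequent in Abi3+/+ mouse 2, and in 2 other mice the share with a macrophage marker was higher in double-positive cells than in the members. Neutrophil markers such as S100a8 were read in 0.629%, 7.14%, 0.661% and 2.65% of the members. Abi3-/- mouse 2 stood apart here in every class, with 7.03% of its triple-negative and 6.51% of its double-positive cells.

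The Apoe level within these cells was low. Median Apoe reads per cell were 98, 43.5, 42 and 44, against 242, 153, 259 and 157 in double-positive cells, and the lowest values in members were 8, 6, 7 and 7 reads. Fewer than 50 Apoe reads were present in 26.6%, 53.3%, 55.7% and 56.0% of the members. Abi3-/- mouse 1 thus had the highest Apoe level and the smallest share of low cells. Apoe was also read in cells that should lack it, in 13 of 269 T cells (4.83%), 4 of 50 B cells (8.0%) and 9 of 97 neutrophils (9.28%). Median reads per cell were 22638, 17659.5, 19892 and 22678 in Apoe single-positive cells, 16493 to 20532 in triple-negative cells and 27473 to 31777 in double-positive cells, so the members lay between the other classes or near the first in depth. Just inside the limit of 40 genes lay 5, 7, 12 and 4 members with 40 to 44 genes, and 8, 8, 15 and 11 cells that fulfilled the rest of the rule had 35 to 39 genes. Libraries shared 17 to 42 barcodes per pair, of which 0 or 1 per pair were members in both.

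The first question was how large this population was in each genotype. Apoe single-positive cells made up 29.5%, 13%, 16.9% and 12.7% of Trem2-positive cells, from 636 of 2153, 546 of 4195, 605 of 3579 and 377 of 2961 cells. The value of Abi3-/- mouse 1 stood above the other 3, and the genotypes overlapped. The mean was 21.3% ± 11.7 (SD, n = 2) in Abi3-/- and 14.8% ± 2.95 (SD, n = 2) in Abi3+/+ mice, a difference of 6.46 percentage points (two-sided exact permutation test over mice, p = 0.667). With 2 mice against 2 this exact test cannot give a p below 0.33. Without Abi3-/- mouse 1 the difference was -1.80 points.

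Of all Trem2-positive cells with Apoe, the share that had neither Cst7 nor Itgax was 41.3%, 25.4%, 46.2% and 35.1%. The lowest value belonged to an Abi3-/- mouse and the highest to an Abi3+/+ mouse, but the ranges overlapped, with means of 33.3% ± 11.2 and 40.6% ± 7.84 (SD, n = 2 each). The difference was -7.30 points (two-sided exact permutation test, p = 0.667), and 0.656 points without Abi3-/- mouse 2. It was -3.90 points without the limits on genes and reads per cell. With Apoe of at least 50 reads it was -0.35 points, and the highest value, 37.4%, then belonged to Abi3-/- mouse 1. Beside them, triple-negative cells made up 18.0%, 31.2%, 51.8% and 47.9% of Trem2-positive cells and double-positive cells 33.6%, 33.3%, 17.7% and 19.5%. The genotypes did not overlap in the shares of these 2 comparison classes, whereas they did in that of the Apoe single-positive cells. The classes are parts of the same whole, and cells with Apoe made up 71.5%, 51.3%, 36.6% and 36.3% of Trem2-positive cells. Differences in the shares of the comparison classes were not tested, and with 2 mice against 2 the exact test cannot give a p below 0.33.

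**Figure D1:**
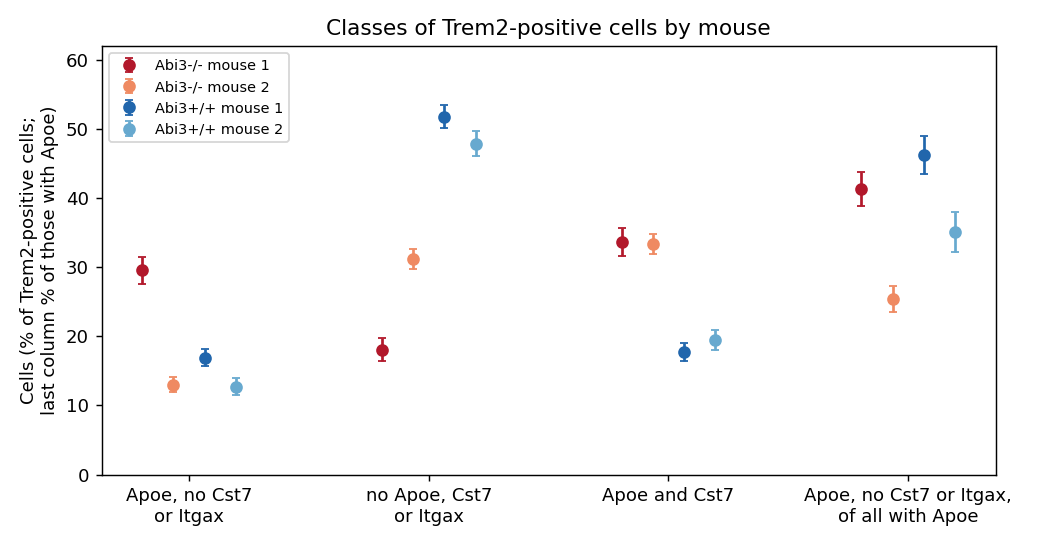
Share of each class among Trem2-positive cells by mouse in percent; the rightmost group gives Apoe single-positive cells as a percent of Trem2-positive cells with Apoe. Points are single mice and bars are exact 95% binomial intervals, which cover counting error only. Apoe single-positive cells reached 29.5% in Abi3-/- mouse 1 and 12.7% to 16.9% in the other mice.

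Gene levels were compared next, on reads summed per mouse and class and given as CPM, counts scaled to library sizes that were first adjusted by the TMM method of edgeR. The 7 genes of the rule were left out. This does not remove differences in genes that go with them, since their reads chose the classes. Against double-positive cells, Apoe single-positive cells were lower in DAM genes and higher in homeostatic and immediate early genes. Of 289 genes tested, 108 passed an adjusted p of 0.05 (37.4%), 52 higher (18.0%) and 56 lower (19.4%), by edgeR's quasi-likelihood test with mouse as a block and Benjamini-Hochberg adjustment. Scaling by library size alone moved the median of all genes from 0.13 to 0.65 on the log2 scale and the calls to 116 higher and 24 lower. Without Abi3-/- mouse 2, Abi3+/+ mouse 1 or Abi3+/+ mouse 2 the count was 53, 50 or 69, and it was 94 without Abi3-/- mouse 1. Of the 20 genes with the largest changes, 14, 9, 10 and 11 still passed when each mouse in turn was left out, and all 20 kept their direction. Among those that passed in all 4 of these fits were Spp1, Csf1, Cd5, Lgals3, Il3ra, Il7r, Ccl2 and Egr1.

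All 15 DAM genes outside the rule were lower in Apoe single-positive than in double-positive cells in all 4 mice, beside 27.0% of all genes tested, and all 15 passed the test, with a median log2 fold change of -1.56 beside 0.13 for all genes tested. By library size alone 12 of the 15 passed, all lower, and 12 to 14 passed when any single mouse was left out. The genes grouped as earlier DAM genes were included. Cst7, which double-positive cells had and the members lacked by rule, is itself a later DAM gene. The direction for DAM genes is therefore not independent of how the classes were chosen. Ctsd, the lysosomal protease cathepsin D, stood at 215558, 256042, 200331 and 162384 CPM in Apoe single-positive cells and at 356084, 561983, 526663 and 437935 CPM in double-positive cells. Every member value lay below every double-positive value, with a log2 fold change of -1.17 ± 0.12 (SE, adjusted p = 0.000332). Fth1, the ferritin heavy chain, fell by 1.08 ± 0.19 and Lyz2, lysozyme, fell by 1.62 ± 0.39 on the log2 scale (adjusted p = 0.0034 and 0.0136).

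Later DAM genes showed the same direction, 7 of 7 lower with a median of -1.69. Spp1, the secreted phosphoprotein osteopontin, stood at 68.4, 45, 29.6 and 34.6 CPM against 753, 710, 529 and 416 CPM in double-positive cells. It had the largest fall among those with reads in all groups, -3.82 ± 0.34 (SE, adjusted p = 0.000151), and the classes did not overlap. Csf1, the ligand of the CSF1 receptor on which microglia depend, was at 102, 94.4, 84.7 and 90.8 CPM against 561, 523, 747 and 408 CPM (-2.57 ± 0.29, adjusted p = 0.00047). The members lay within a narrow range across mice, far under the double-positive cells. Cd9, a tetraspanin, was at 19854, 23728, 14540 and 19389 CPM against 34587, 43140, 34074 and 38903 CPM (-0.98 ± 0.08, adjusted p = 0.000118), again with no overlap. Ccl6, a chemokine, and Hif1a, a transcription factor of the hypoxia response, fell by 1.69 ± 0.10 and 1.56 ± 0.10 on the log2 scale.

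Further genes with the largest falls were Lgals3, Cd5, Lilrb4a, Il3ra, Cd244, Cxcr4 and C3. Lgals3, the lectin galectin-3, stood at 31.7, 96.5, 51.1 and 341 CPM against 343, 613, 725 and 1499 CPM (-2.97 ± 0.49, adjusted p = 0.00235). It was lower in every mouse, although the value of Abi3+/+ mouse 2 nearly reached the lowest double-positive value. Lilrb4a, an inhibitory receptor, was at 130, 652, 194 and 620 CPM against 1048, 2684, 2178 and 2685 CPM (-2.72 ± 0.89, adjusted p = 0.0401). Cd5, a scavenger receptor family member of lymphocytes, was at 6.88, 22.6, 17.3 and 50.8 CPM against 72.5, 199, 285 and 278 CPM (-3.21 ± 0.57), and Il3ra, the IL-3 receptor alpha chain, fell by 2.37 ± 0.34 on the log2 scale. The values for Cd244, Cxcr4 and C3, the central complement component, were -2.03 ± 0.59, -2.03 ± 0.67 and -1.95 ± 0.48. Btla, an inhibitory receptor of lymphocytes, was read in 0 of 2164 Apoe single-positive cells and in 15 of 3331 double-positive cells (0.450%). By counting error alone, the value of 0 allows a share of cells with a Btla read of up to 0.139%.

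Homeostatic microglia genes were mostly higher than in double-positive cells: of 12 tested, 7 rose and 2 fell, beside 18.0% and 19.4% of all genes. The median was 0.36 beside 0.13, and 8 were higher in all 4 mice, beside 30.1% of all genes tested. By library size alone 9 rose and 0 fell. Selplg, the P-selectin ligand, stood at 51930, 35402, 45519 and 29131 CPM against 45311, 22847, 22902 and 18221 CPM. It was higher in all 4 mice, although the classes overlapped across mice (0.62 ± 0.13, adjusted p = 0.00806). Cx3cr1 was at 6936, 5909, 7989 and 3414 CPM against 6145, 4244, 4482 and 2494 CPM (0.48 ± 0.11, adjusted p = 0.0107). Maf, a transcription factor of tissue macrophages, rose by 0.81 ± 0.17 on the log2 scale. Ly86, a cofactor of a Toll-like receptor homologue, and Cd34 fell by 0.53 ± 0.08 and 0.37 ± 0.10, Ly86 lying at 0.00139 with limma on mean log levels. Only 1 of the 12 still rose without Abi3-/- mouse 2 or without Abi3+/+ mouse 1, and the median then was 0.38 and 0.29.

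Immediate early genes, which respond within minutes to many stimuli, rose in 7 of 9 and fell in 0, beside 18.0% and 19.4% of all genes, with a median of 0.55 beside 0.13. The count was 4 of 9 without Abi3-/- mouse 2 and without Abi3+/+ mouse 1. Egr1, a zinc finger transcription factor, stood at 11562, 20741, 21872 and 25755 CPM against 8765, 9104, 8146 and 10213 CPM. Every member value was above every double-positive value, with Abi3-/- mouse 1 nearest to them (1.08 ± 0.16, adjusted p = 0.00166). Egr1 reads were spread over many cells: the 10 cells with most of them held 9.23%, 8.34%, 6.49% and 9.61% of its reads in the members. Jun and Junb, subunits of the AP-1 transcription factor, rose by 0.68 ± 0.09 and 0.75 ± 0.11, Fosb by 0.62 ± 0.16, and Dusp1, a phosphatase of MAP kinases, by 0.38 ± 0.08 on the log2 scale.

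**Figure D2:**
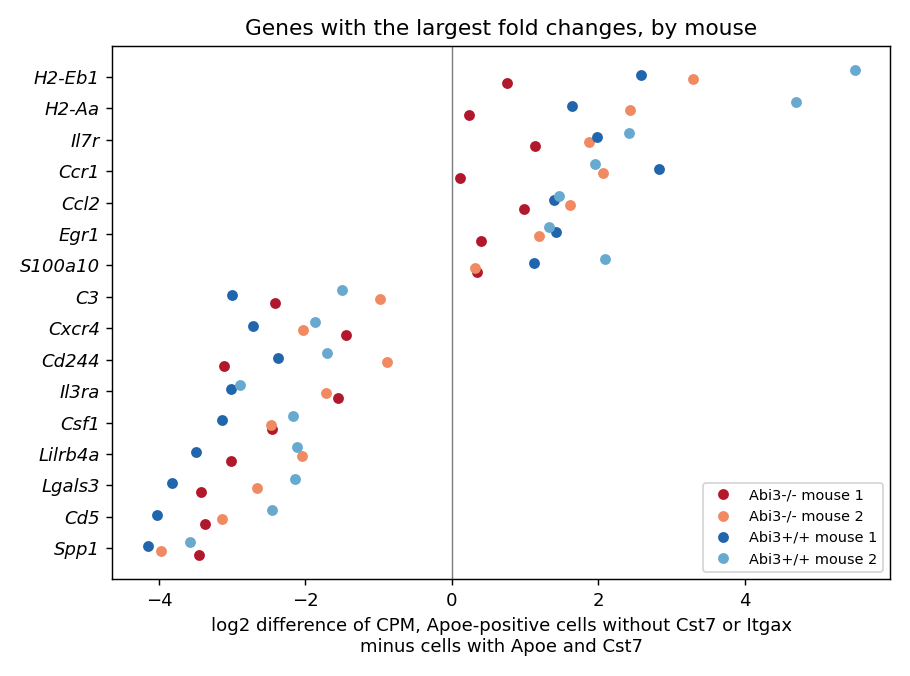
Differences in log2 CPM between Apoe single-positive and double-positive cells (horizontal axis) for genes with the largest fold changes past an adjusted p of 0.05 and of 1 direction in all 4 mice; each point is a mouse. Genes read in few cells (Btla, Irf4, Fcna, Cd163) are not drawn. Spp1, Cd5, Lgals3 and Csf1 were far below 0 in every mouse, while the points of H2-Eb1 and H2-Aa were spread widely.

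Among inflammatory mediators the members differed from double-positive cells in both directions, 4 of 13 chemokines and cytokines higher and 5 lower with a median of 0.07, beside 18.0% and 19.4% of all genes. Without Abi3-/- mouse 2, Abi3+/+ mouse 1 or Abi3+/+ mouse 2 the counts were 3 and 4. Ccl2, a chemokine that attracts monocytes, stood at 1037, 1665, 740 and 1181 CPM against 522, 544, 280 and 426 CPM (1.36 ± 0.26, adjusted p = 0.00492). All member values exceeded all double-positive values. Il6, Il1a and Tnf rose by 0.82 ± 0.16, 0.52 ± 0.09 and 0.47 ± 0.16 on the log2 scale, Tnf being higher in 3 of 4 mice. The chemokines Ccl3 and Ccl4 fell by 1.13 ± 0.17 and 0.96 ± 0.16, and Il1b fell by 1.01 ± 0.27. The largest fitted rises were in Fcna, Irf4 and Cd163, each read in few cells, so no fold is given. Cd163, the macrophage scavenger receptor, stood at 114, 116, 85.9 and 299 CPM against 0, 14.1, 0 and 17.9 CPM, from 25 and 2 cells (adjusted p = 0.033). Fcna, the lectin ficolin A, was at 12, 10, 3.44 and 176 CPM against 0, 0, 0 and 1.05 CPM (11 and 1 cells, adjusted p = 0.0323), and Irf4, an interferon regulatory factor, at 15.9, 25.3, 9.73 and 24.8 CPM against 0, 0, 1.23 and 0 CPM (17 and 1 cells, adjusted p = 0.0188). Cd163 and Fcna were the 2 of 7 macrophage markers that rose, and the summed level of the 7 tested was 265, 238, 222 and 655 CPM in the members and 20.9 to 152 CPM in double-positive cells. Other genes with large rises were Il7r, Ccr1 and S100a10. Il7r, the IL-7 receptor, was at 184, 261, 259 and 259 CPM against 83.5, 71.3, 65.1 and 48.5 CPM (1.83 ± 0.23, adjusted p = 0.000906), and the classes did not overlap. Ccr1, a chemokine receptor, was at 897, 161, 127 and 285 CPM against 831, 38.5, 17.8 and 73.7 CPM (1.64 ± 0.52, adjusted p = 0.0379), with Abi3-/- mouse 1 high in both classes. S100a10 rose by 0.96 ± 0.28 on the log2 scale.

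Of 12 Toll-like receptor pathway genes, 3 rose and 2 fell, near the 18.0% and 19.4% of all genes, and 0 rose without Abi3-/- mouse 2 or without Abi3+/+ mouse 1. Tlr4, the receptor for lipopolysaccharide, rose by 0.61 ± 0.19, and Tlr2, the receptor for bacterial lipoproteins, fell by 0.64 ± 0.07 on the log2 scale. Its coreceptor Cd14 fell by 0.41 ± 0.08, but was 0.11 higher by library size alone. Of 8 lysosome and lipid genes 6 fell (median -0.88), and 3 to 5 did so when a mouse was left out. Among 7 interferon response genes 2 fell, Ifitm3 by 1.23 ± 0.26 and Irf7 by 0.80 ± 0.26. C1qa and C1qb, the initiators of the classical complement cascade, stood at -0.09 (adjusted p = 0.361) and 0.09 (adjusted p = 0.675). The direction of C1qa depended on the scaling, with 0.43 by library size alone. Among 8 reference genes, 1 rose and 3 fell, with a median of -0.18. Gapdh, an enzyme of glycolysis, fell by 0.94 ± 0.14.

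Against triple-negative cells the differences were fewer. Of 289 genes 16 passed (5.54%), all 16 higher in Apoe single-positive cells, and 48 had an unadjusted p under 0.05. The count depended on the libraries, with 0 without Abi3-/- mouse 2, 0 without Abi3+/+ mouse 1, 3 without Abi3+/+ mouse 2 and 18 without Abi3-/- mouse 1. It also moved with cells of other types: 2 genes, Lgals1 and Thy1, passed once cells with a macrophage marker were left out, and Thy1 alone once cells with ependymal, astrocyte or precursor markers were left out as well.

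MHC class II genes, which present peptides to CD4 T cells, were the list with most genes higher than in triple-negative cells. Of 6 genes 4 passed, beside 5.54% of all genes, with a median of 3.21 beside -0.03 for all genes tested. With each mouse left out in turn, 4, 0, 0 and 1 of the 6 passed. H2-Aa, an alpha chain, stood at 2430, 995, 2023 and 6421 CPM against 661, 31.3, 47 and 19 CPM. Every member value exceeded every triple-negative value, and the rise was least in Abi3-/- mouse 1 and greatest in Abi3+/+ mouse 2 (5.34 ± 1.03, adjusted p = 0.0289). H2-Eb1, a beta chain, was at 1331, 573, 1334 and 3235 CPM against 221, 11.9, 29.3 and 12.6 CPM (5.71 ± 0.89, adjusted p = 0.0156), likewise without overlap. H2-Ab1, the beta chain that pairs with H2-Aa, was at 975, 386, 736 and 2069 CPM against 387, 75.2, 46.3 and 49.2 CPM (3.34 ± 0.64, adjusted p = 0.0289), where Abi3-/- mouse 2 lay just below the triple-negative cells of Abi3-/- mouse 1. Cd74, the invariant chain, rose by 3.08 ± 0.71 (adjusted p = 0.0472), whereas H2-DMa, a peptide-exchange factor, stood at -0.03 (adjusted p = 0.877).

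The class II reads sat in few cells. H2-Aa was read in 56, 5, 18 and 13 Apoe single-positive cells, and the 10 cells with most reads held 77.3%, 100%, 98.7% and 99.7% of them. A macrophage marker was read in 3, 3, 6 and 10 of those cells and Cx3cr1 in 52, 5, 16 and 7. In Abi3-/- mouse 2 and Abi3+/+ mouse 2 most of them had a macrophage marker. As a share of cells, those with an H2-Aa read were 8.81%, 0.916%, 2.98% and 3.45% of the members, 6.44%, 1.22%, 1.57% and 0.565% of triple-negative cells and 13.8%, 3.93%, 6.64% and 2.60% of double-positive cells. The share was thus below that of double-positive cells in 3 of 4 mice and below that of triple-negative cells in Abi3-/- mouse 2, although the summed CPM was higher in the members in each mouse. With macrophage-marker cells left out, the log2 fold changes were 2.70 ± 1.16 for H2-Aa (adjusted p = 0.319), 3.07 ± 0.77 for H2-Eb1 (0.0646), 1.54 ± 0.37 for H2-Ab1 (0.0598) and 1.82 ± 0.38 for Cd74 (0.0598). Against double-positive cells 2 of the 6 genes rose, beside 18.0% of all genes. H2-Eb1 rose by 3.39 ± 0.81 and H2-Aa by 2.66 ± 0.90 (adjusted p = 0.0122 and 0.0472), though limma on mean log levels put H2-Aa at -0.052. With each mouse left out in turn, 2, 0, 0 and 1 of the 6 passed. Without macrophage-marker cells 0 of 6 passed against double-positive cells, with a median of 0.01.

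Of the class II genes that rose together, the 250 bases before the start site of H2-Aa and H2-Eb1 are shown because both hold CTGATTGG, the letters of the Y box of class II promoters, in capitals. Sequences are from RefSeq in build GRCm38.p6, on the strand of the gene: H2-Aa at chr17:34287824-34288073 on the minus strand and H2-Eb1 at chr17:34305617-34305866 on the plus strand.
H2-Aa: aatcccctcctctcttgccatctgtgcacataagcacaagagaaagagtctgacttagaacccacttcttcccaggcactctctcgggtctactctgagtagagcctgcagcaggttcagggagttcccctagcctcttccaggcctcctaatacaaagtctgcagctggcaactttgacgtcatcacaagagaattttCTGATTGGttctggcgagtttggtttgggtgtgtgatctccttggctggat
H2-Eb1: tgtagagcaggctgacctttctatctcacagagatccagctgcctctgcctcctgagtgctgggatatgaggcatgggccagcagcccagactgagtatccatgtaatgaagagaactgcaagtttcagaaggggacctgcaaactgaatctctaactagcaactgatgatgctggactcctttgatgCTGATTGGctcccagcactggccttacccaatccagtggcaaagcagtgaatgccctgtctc
The first base of the match lay 51 bases before the start site in H2-Aa and 62 bases before it in H2-Eb1. Of 6 class II genes 4 had an entry in the promoter table used here, those without being H2-Ab1 and Cd74, and 2 of those 4 held the letters on either strand, as did 1258 of 32851 promoter windows of this length (3.83%). A match is a description of the sequence and was not tied to binding of a factor here.

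Other genes higher than in triple-negative cells were mostly read in few cells. Cd163, a scavenger receptor of border macrophages, stood at 114, 116, 85.9 and 299 CPM in Apoe single-positive cells and at 0, 0.535, 0 and 0 CPM in triple-negative cells (adjusted p = 0.034). Its reads came from 25 members and 1 triple-negative cell, so no fold is given. Ccnd2, a cyclin, and Cd38, an NAD-consuming ectoenzyme, were read in 13 and 36 members and in 1 and 5 triple-negative cells (adjusted p = 0.0279 and 0.0472), and neither passed once cells with markers of either list were left out, Ccnd2 with an adjusted p of 0.481 and Cd38 at -0.99 on the log2 scale. Ncam1, Trib2 and Vegfa, 3 of 8 listed markers of ependymal cells, astrocytes or precursors, rose, beside 5.54% of all genes. Their log2 fold changes were 5.48 ± 1.31, 4.75 ± 1.11 and 2.37 ± 0.50 (adjusted p = 0.0472, 0.0472 and 0.034). A read of any of the 8 was found in 17, 47, 32 and 39 members, so these folds rest on few cells. All 3 genes passed without Abi3-/- mouse 1 and none did without any other single mouse. The summed level of that list was 208, 310, 322 and 1206 CPM in the members and 23.7 to 37.8 CPM in triple-negative cells. For the 7 tested macrophage markers it was 265, 238, 222 and 655 CPM against 4.27 to 16.8 CPM.

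Lgals1, the lectin galectin-1, stood at 228, 217, 387 and 1694 CPM against 36.7, 28.3, 67.4 and 73.7 CPM (3.22 ± 0.42, adjusted p = 0.00719). All member values exceeded all triple-negative values, and Abi3+/+ mouse 2 was highest. The difference was 2.79 ± 0.44 (adjusted p = 0.0198) without macrophage-marker cells and 1.07 ± 0.23 (0.0633) without cells with markers of either list. Thy1, a surface protein of neurons and T cells whose promoter drives the transgenes, was at 57.4, 146, 294 and 132 CPM against 6.81, 26.3, 44.9 and 43.3 CPM (2.43 ± 0.32, adjusted p = 0.00719). It stayed at 2.06 ± 0.29 (0.0212) without either set of cells. Cxcr4, a chemokine receptor, was at 9.38, 27.7, 7.46 and 24.7 CPM against 0.577, 10.4, 0.516 and 0.821 CPM (3.4 ± 0.75, adjusted p = 0.0387), or 2.41 ± 0.66 (0.147) without cells with markers of either list, and was, as given above, lower than in double-positive cells.

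The remaining 3 of the 16 genes had the smallest rises. These were similar in size without cells with markers of either list, but none passed there (adjusted p = 0.0633 for Cd72 and Cd22 and 0.0651 for Tnfsf13). Cd72, an inhibitory C-type lectin, was at 422, 968, 158 and 1147 CPM against 238, 247, 93.9 and 322 CPM (1.35 ± 0.24, adjusted p = 0.0273), and against double-positive cells it fell by 1.42 ± 0.24. The genes Cd22, an inhibitory sialic acid receptor, and Tnfsf13, the cytokine APRIL, rose by 0.53 ± 0.11 and 0.60 ± 0.13 on the log2 scale. Cd22 in the members was at 539, 476, 287 and 220 CPM, above the 391, 319, 188 and 157 CPM of triple-negative cells in the same mice. Thy1, Cd72, Tnfsf13 and Cd22 lay outside the rule for named genes and were chosen after their values were seen.

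**Figure D3:**
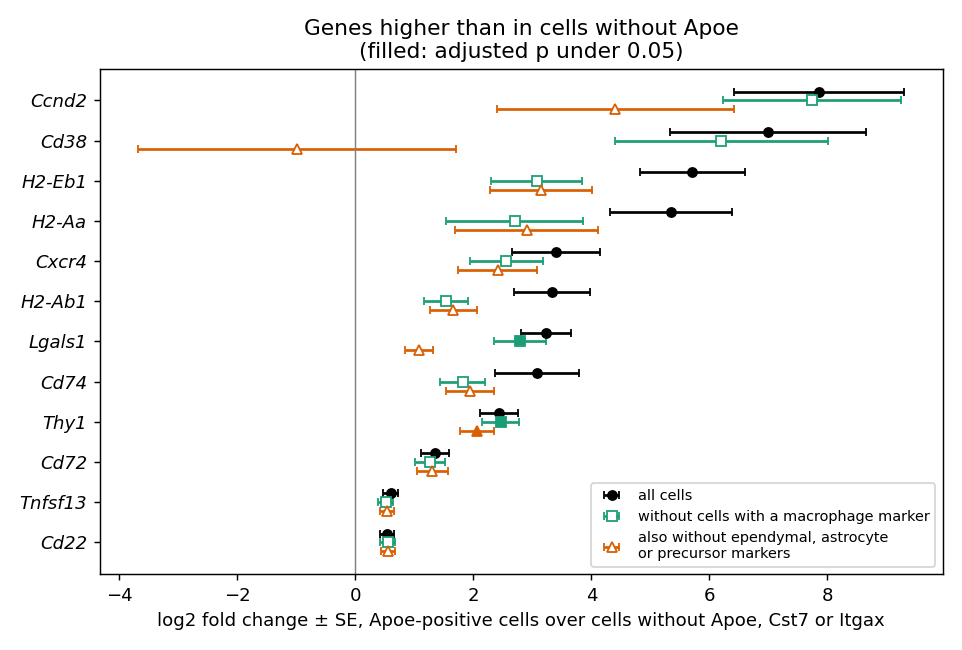
Log2 fold change with its SE of Apoe single-positive over triple-negative cells for genes that passed the test, with all cells (black), without macrophage-marker cells (green) and also without cells with ependymal, astrocyte or precursor markers (orange); filled symbols have an adjusted p under 0.05. Listed markers are not drawn. Thy1 passed in all 3 settings, Lgals1 in the first and the second, and the other genes with all cells alone.

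No DAM gene passed the test against triple-negative cells. Of the 15 tested, 0 were called, with a median of 0.26 beside -0.03 for all genes; 8 of the 15 were higher in all 4 mice, as were 18.0% of all genes tested, and 0 were lower in all 4. Lyz2 stood at 11517, 10706, 4250 and 13020 CPM against 6451, 5089, 1390 and 3318 CPM (1.32 ± 0.39, adjusted p = 0.0905). It was higher in each mouse but missed the threshold. Ctsd was at 0.05 ± 0.12 (adjusted p = 0.869), Cd9 at 0.02 ± 0.08 (0.886), Cd63, a tetraspanin of late endosomes, at 0.62 ± 0.16 (0.0662) and Fth1 at 0.32 ± 0.19 (0.374). Without Abi3-/- mouse 1, 5 of the 15 passed, all higher, Cd63, Lyz2, Lgals3, Lilrb4a and Spp1, beside 18 of all 292 genes tested. Without any other single mouse 0 of the 15 passed.

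Homeostatic and immediate early genes leaned the other way. Of 12 homeostatic genes 0 passed, with a median of -0.17, and 8 were lower in all 4 mice. Cx3cr1 was at -0.25 ± 0.11 (adjusted p = 0.3) and Selplg at -0.16 ± 0.13 (0.553). Of 9 immediate early genes 0 passed, with a median of -0.18, and 7 were lower in all 4 mice, beside 22.8% of all genes. Egr1, at 16236, 23252, 24099 and 32408 CPM in triple-negative cells, gave -0.27 ± 0.16 (adjusted p = 0.351). Interferon response genes had a median of 0.77 with 0 of 7 passing. Ifitm3, an antiviral membrane protein, was at 743, 394, 416 and 646 CPM against 457, 311, 172 and 182 CPM (1.02 ± 0.26, adjusted p = 0.0647), higher in each mouse without reaching the threshold.

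**Figure D4:**
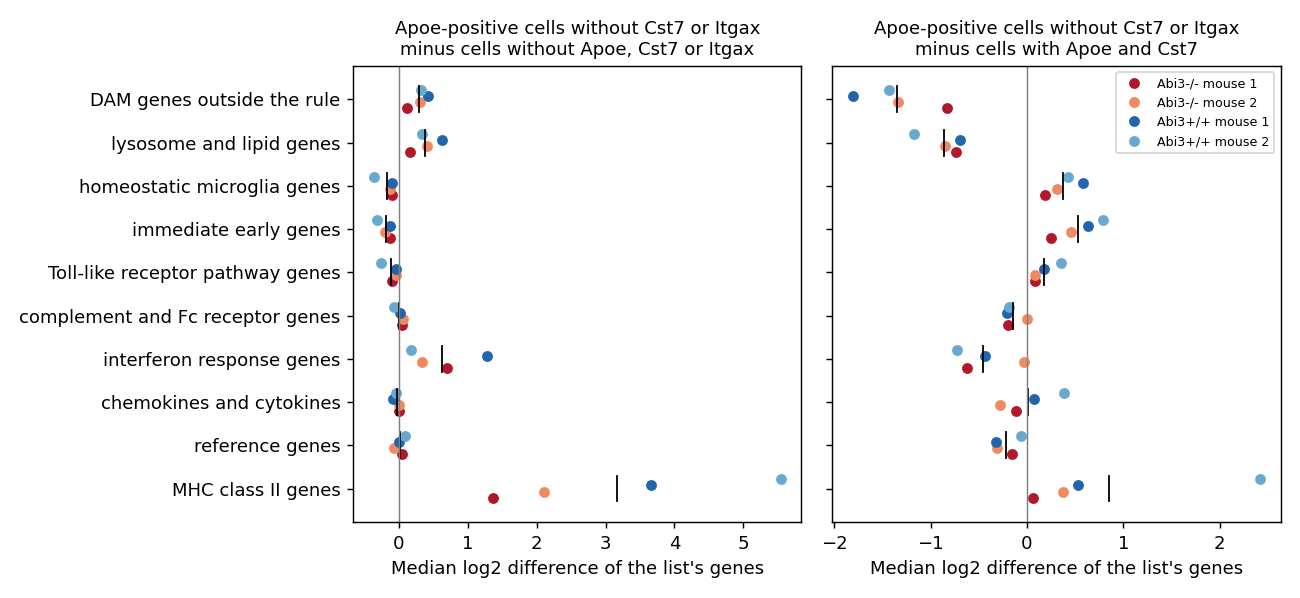
Median log2 difference over the genes of each list, Apoe single-positive cells minus triple-negative cells (left) and minus double-positive cells (right); each point is a mouse and the black line is the mean over mice. DAM genes lay below 0 against double-positive cells in all 4 mice and at or a little above 0 against triple-negative cells, and of the lists drawn MHC class II genes spread most between mice.

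Genotypes were then compared within the Apoe single-positive cells. With edgeR's quasi-likelihood test 0 of 277 genes passed (0%), and 5 had an unadjusted p under 0.05. DESeq2 and limma called 0 as well, with 23 genes each at an unadjusted p under 0.05. The genotypes did not overlap in 100 of the 277 genes (36.1%), 51 higher (18.4%) and 49 lower (17.7%) in Abi3-/-. The values below are in CPM scaled over the members alone.

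The 5 genes with the smallest unadjusted p all had an adjusted p of 0.816 and are given as not passing. Fosb, an AP-1 subunit, stood at 1563, 2646, 4631 and 6082 CPM, with both Abi3-/- mice below both Abi3+/+ mice (-1.35 ± 0.34, unadjusted p = 0.0149). A Fosb read was present in 25.3%, 33.9%, 52.4% and 49.9% of the cells. Triple-negative cells had a similar split, at 24.5%, 33.9%, 55.3% and 53.1%. In double-positive cells, at 21.7%, 26.5%, 29.2% and 26.2%, the genotypes overlapped. Cd22 was at 624, 524, 332 and 239 CPM, with both Abi3-/- mice above (1.01 ± 0.30, unadjusted p = 0.0264). Tnfsf8, the CD30 ligand, was at 491, 696, 121 and 278 CPM, again with both Abi3-/- mice above (1.58 ± 0.52). Icos, a costimulatory receptor of T cells, was at 52.2, 78.3, 181 and 152 CPM (-1.35 ± 0.45), and Lgals1 at 263, 238, 447 and 1845 CPM (-2.19 ± 0.74). Both were lower in Abi3-/- mice without overlap, and the Lgals1 value of Abi3+/+ mouse 2 went with the macrophage and ependymal marker levels of that library. The Lgals1 difference was -0.54 without cells with markers of either list and -0.87 without Abi3+/+ mouse 2.

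By list, 0 genes passed between genotypes in any of the 20 lists. For DAM genes the median was 0.36, with 12 of 15 above 0 and a summed level of 378176, 410677, 324058 and 292301 CPM, higher in both Abi3-/- mice. In this list 6 of 15 genes were higher in Abi3-/- mice without overlap and 1 lower, beside 18.4% and 17.7% of all genes. For immediate early genes the median was -0.38, with 1 of 9 above 0 and a summed level of 46479, 69356, 71613 and 81095 CPM. The sums did not overlap, but Abi3-/- mouse 2 was close to Abi3+/+ mouse 1. In Abi3-/- mice 2 of the 9 genes were lower without overlap, a share near the 17.7% of all genes. Of 13 chemokines and cytokines 5 were lower in Abi3-/- mice without overlap and 1 higher. The same held for 4 and 1 of 8 ependymal, astrocyte or precursor markers, which mark other cell types. Homeostatic genes summed to 159528, 123102, 141859 and 109636 CPM, and the genotypes overlapped.

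Whether the genotype difference in Apoe single-positive cells departed from that in the other classes was tested by an interaction of class and genotype. With edgeR's quasi-likelihood test 0 of 289 genes passed against triple-negative cells and 0 against double-positive cells, with 13 and 30 genes at an unadjusted p under 0.05. DESeq2 called 6 and 9, and limma 0 and 0 with 11 and 60 at an unadjusted p under 0.05.

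The Apoe single-positive cells varied among themselves along their Apoe level. They were split in each mouse into 3 equal parts by the Apoe share of their reads, as a description without a test, since Apoe chose the parts. CPM by part are scaled to the reads of the part alone, without TMM. Median Apoe reads per cell went from 33.5 to 271.5, 13.5 to 136.5, 12 to 125.5 and 14 to 125.5 between the lowest and the highest part. Immediate early genes summed to 46003, 79396, 78296 and 101753 CPM in the lowest part and to 37029, 56763, 66534 and 77655 in the highest, lower in every mouse. Homeostatic genes went from 143886, 127266, 147545 and 135940 to 140614, 110785, 135016 and 97477, also lower in each.

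DAM genes summed to 340435, 383604, 320798 and 318172 CPM in the lowest and 346122, 433513, 337498 and 334485 in the highest part, slightly higher in each mouse. Of 181 genes with a mean of at least 100 CPM, 37 were higher and 41 lower in the highest part in all 4 mice. The largest mean log2 differences were in H2-Aa (6.14), the coagulation factor F5 (5.67), H2-Eb1 (5.59), Cd163 (5.38) and Lgals1 (4.46). MHC class II genes went from 7894, 5401, 4709 and 3389 to 13244, 7261, 22016 and 55424 CPM, most of all in Abi3+/+ mouse 2, the library with the highest macrophage marker level. In both Abi3-/- mice the middle part stood above the highest, at 16089 and 11113 CPM. Without cells with markers of either list the class II genes went from 8057, 5479, 4815 and 2986 to 11405, 5224, 9381 and 10390 CPM, no longer higher in Abi3-/- mouse 2. The mean log2 differences were then 3.46 for H2-Aa, 2.71 for H2-Eb1 and 2.37 for Lgals1, while F5 and Cd163 are themselves markers of these lists. Immediate early genes were still lower in the highest part in each mouse. Homeostatic genes without marker cells went from 144618, 129204, 147726 and 136159 to 144270, 112095, 142383 and 125162 CPM, lower in each mouse. DAM genes went from 340904, 388281, 320360 and 320355 to 341834, 441145, 334178 and 326020 CPM, higher in each. Except in Abi3-/- mouse 2, both differences were smaller than with all members, and they were slight in Abi3-/- mouse 1.

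**Figure D5:**
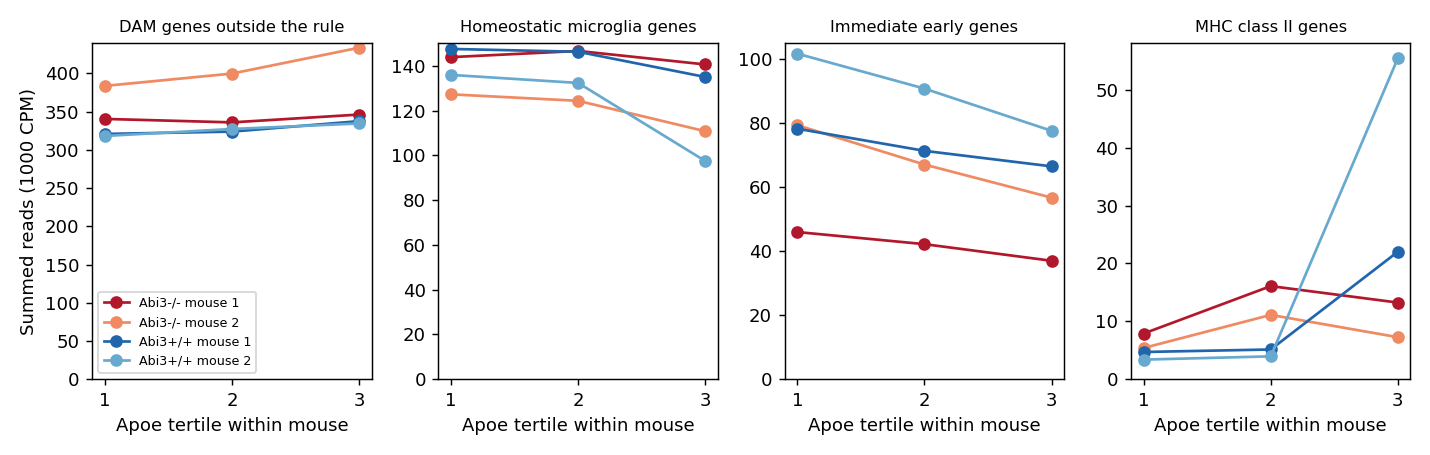
Summed reads of 4 gene lists in units of 1000 CPM (vertical axis, from 0) in 3 equal parts of the Apoe single-positive cells, from the lowest (1) to the highest (3) Apoe share of reads within each mouse; lines join the parts of a mouse. Immediate early genes were lower with more Apoe in all 4 mice, and MHC class II genes were highest in the top part of both Abi3+/+ mice.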

How the data were processed

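The members and gene lists were chosen with earlier results of these data known. Per the study's methods, libraries of 1 hemisphere per mouse were read with a BD Rhapsody targeted panel and processed by the authors with the targeted pipeline at default settings, whose version is not given in the sources used here; the submitters' processing notes name mm10. The deposited values are adjusted read counts per cell, not molecules. Reads were summed per mouse and class and tested with edgeR 4.0.16 (R 4.3.3; quasi-likelihood, filterByExpr, TMM, mouse block, Benjamini-Hochberg), with the 7 rule genes left out; summed reads per class and mouse were 7896362 to 38206233. DESeq2 1.42.0, limma 3.58.1, other scalings, Apoe limits, thinning to 10000 reads per cell and leaving out mice were alternatives. No doublet caller was run; a limit of 40000 reads was tried instead. Scripts were tested on simulated data. Named genes were the 10 with the largest fold change per direction, past an adjusted p of 0.05 and of the same sign in all 4 mice, and for genotypes the 5 smallest p; list examples by rule were the up to 4 genes of each list with the largest mean level. Cx3cr1, Maf, Cd34, Junb, Fosb, Il6, Il1b, Tnf, Tlr4, Irf7, Thy1, Cd72, Tnfsf13 and Cd22 in the comparisons of classes were named after their values were seen. In all, 20 gene lists were summarised. Samples of a genotype are separate mice per the labels. Intervals cover counting error only, since reads are not independent molecules.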

Additional observations from a re-analysis of the deposited data

Results flagged for a closer look

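In 2 gene lists the Abi3-/- mice moved one way and the Abi3+/+ mice the other when Apoe single-positive cells were set against another class. The median log2 difference of the microglia markers from triple-negative cells was 0.05 and 0.07 in Abi3-/- and -0.03 and -0.12 in Abi3+/+ mice, a difference between the genotype means of 0.135. For chemokines and cytokines against double-positive cells it was -0.11 and -0.28 in Abi3-/- and 0.07 and 0.38 in Abi3+/+ mice, a difference of -0.421. The differences of the medians were not tested. Gene by gene, the interaction of class and genotype called 0 of 10 microglia markers, with a median of 0.12 beside 0.09 for all genes, and 0 of 13 chemokines and cytokines, with a median of -0.020 beside -0.076 for all genes, by edgeR.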

How the results depend on the processing

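Alternatives with Apoe of at least 50 reads or without cells with other markers were chosen after seeing the data. Against triple-negative cells the 16 calls became 46 with DESeq2, 0 with limma, 0 without the mouse block, 34 with Apoe of at least 50 reads, 2 without macrophage-marker cells, 8 without cells with ependymal, astrocyte or precursor markers, 1 without either, and 0 to 18 without single mice; all other settings gave 13 to 21. Against double-positive cells the 108 calls became 56 without the mouse block and 50 to 94 without single mice, and 79 to 140 otherwise. The interaction counts of 0 became 6 and 9 with DESeq2. The cause of these shifts was not tested, except that leaving out a mouse or the block changes the residual degrees of freedom. The share of calls against double-positive cells that were higher was 48.1%, but 82.9% by library size alone, 68.9% with limma and 35.7% without a filter.

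Some log2 fold changes reversed. Cd38 against triple-negative cells was -0.99 without cells of either marker list. Against double-positive cells, library size alone gave C1qa 0.43, Ighm 0.23, Ighd 0.49, Irf8 0.36, H2-DMa 0.47, Lamp1 0.017, Fcgr3 0.43, Cd14 0.11, Pcna 0.46, Hprt 0.27 and Vps28 0.40. There limma on mean log-normalized levels gave H2-Aa -0.052, C1qa 0.37, Ly86 0.00139, Irf8 0.31, H2-DMa 0.31, Cd74 -0.31, Lamp1 0.039, Slc11a1 0.00866, Fcgr3 0.36, Cd14 0.30 and Pcna 0.16. The difference in the share of members ranged from -1.80 to 14.7 points among Trem2-positive and from -15.2 to 0.656 points among Apoe-positive cells without single mice.

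With the replicate number as a block, genotype differences within the members gave 0 calls, with 11 genes at an unadjusted p under 0.05. The share differences of 6.46 and -7.30 points are the same under the block by construction, since each number holds 1 mouse of each genotype. Same-numbered mice correlated at 0.04, so the numbers were not taken to pair them. With 2 mice per genotype, and 377 to 636 members each, differences within the spread between mice were not detectable.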
